A study of Mus musculus with 9 samples.

Results

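Interferon-inducible GTPases are large cytosolic proteins that cells make in quantity once interferon reaches them. The guanylate-binding proteins (Gbp genes) coat vacuoles and bacteria and feed the caspase and inflammasome machinery. The immunity-related GTPases fall into effectors such as Iigp1, which load onto pathogen vacuoles, and the regulators Irgm1, Irgm2 and Igtp (Irgm3), which keep the effectors off the cell's own membranes. Interferon gamma acts mainly through GAS elements in DNA, and type I interferon acts mainly through ISRE elements. Many of these GTPase genes answer both kinds of interferon, and Isg15, which encodes a ubiquitin-like modifier, is best known as a type I interferon gene.

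The 9 genes described here were chosen by name: Gbp2, Gbp3, Gbp4, Gbp5, Gbp7, Irgm1, Irgm2, Igtp and Iigp1. All 9 were among the 24296 genes counted. Single-cell RNA sequencing by Seq-Well, which captures polyadenylated RNA of single cells in small wells, was done on the left knee joint of 9 female 129/Sve mice aged 8 weeks. The 5 sick mice had been sensitised to methylated bovine serum albumin (mBSA) and then received mBSA in the knee, which triggers antigen-induced arthritis. The 4 healthy mice received phosphate-buffered saline in the same knee, and all joints were taken 1 week after the injection. Arthritis of the sick mice was checked by the submitters on stained tissue. The labels state the sensitisation for the mice made sick and do not state it for the healthy mice. They name no genetic change in either group.

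The 16749 kept cells held between 896930 and 4675909 counts per mouse, and the 9 GTPase genes together gave between 72 and 155 counts per healthy mouse and between 377 and 892 per sick mouse. Neutrophil markers made up between 11729 and 33669 CPM (counts scaled to a common library size) in healthy joints and between 24376 and 40967 in sick joints. The 7 chondrocyte markers together were at most 23.6 CPM in any mouse, and 4 of them (Acan, Col9a1, Chad and Matn3) were absent or at 0, so the cartilage of the labelled joint is hardly represented. Healthy mice 2, 3 and 4 stood apart: haemoglobin took 35.3% to 39.7% of their counts, against 17.6% in healthy mouse 1 and 10.2% to 27.9% in the sick mice. The mitochondrial share of counts lay between 5.48% and 10.3% in the healthy group and between 3.09% and 6.05% in the sick group. The part of these library differences in the results was not tested.

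In GENCODE M21 (build GRCm38) Gbp5, Gbp7, Gbp3 and Gbp2 lie in one cluster on chromosome 3, Gbp4 lies on chromosome 5, and Irgm1, Igtp and Irgm2 lie on chromosome 11. The upstream DNA of the genes is shown because it carries the letters that interferon-activated factors are known to bind. RefSeq (GRCm38.p6) had an upstream stretch for 7 of the 9 genes and for Isg15, and the last 120 bases before the transcript start are given for Gbp7, Igtp, Irgm2 and Isg15. These are reference bases, and the mice are of another strain. Capitals mark matches, on either strand, to the ISRE core (GAAA, any 2 bases, GAAA) or to the GAS letters (TTC, any 3 bases, GAA).
Gbp7 (chr3:142530216-142530335, plus strand): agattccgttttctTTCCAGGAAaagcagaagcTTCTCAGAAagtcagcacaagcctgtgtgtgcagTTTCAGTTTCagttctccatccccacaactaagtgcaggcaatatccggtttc
Igtp (chr11:58199436-58199555, plus strand): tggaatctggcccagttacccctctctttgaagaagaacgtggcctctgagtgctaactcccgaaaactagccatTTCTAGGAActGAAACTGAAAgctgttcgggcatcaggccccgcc
Irgm2 (chr11:58214857-58214976, plus strand): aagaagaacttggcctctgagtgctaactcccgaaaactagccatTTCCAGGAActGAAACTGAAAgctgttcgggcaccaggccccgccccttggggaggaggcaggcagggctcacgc
Isg15 (chr4:156200819-156200938, minus strand): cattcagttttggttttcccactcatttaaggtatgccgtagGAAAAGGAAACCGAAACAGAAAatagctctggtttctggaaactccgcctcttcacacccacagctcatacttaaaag

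The Igtp and Irgm2 stretches share an identical run of 38 bases, and in both a GAS match is followed by an ISRE core match. Gbp7 holds 2 GAS matches and then an ISRE core match, while Isg15 holds 3 overlapping ISRE core matches and no GAS match. For Irgm1, Gbp3 and Gbp2 only the matched letters with 5 bases on each side are given.
Irgm1 (chr11:48871430-48871455, minus strand): ttcaaGAAATAGAAACCGAAActgat
Gbp3 (chr3:142559994-142560019, plus strand): cacagTTTCAGTTTCTATTTCccaga
Gbp2 (chr3:142620599-142620618, plus strand): tttagTTTCACTTTCactgt

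Within 250 bases upstream, an ISRE core match stood in 7 of the 8 RefSeq promoters of these 7 genes, whereas 2.98% of 32851 mouse promoters of the same length hold one. The exception was the promoter of a second RefSeq start of Gbp3, which had neither match. A GAS match stood in 4 of the 8 (those of Gbp5, Gbp7, Igtp and Irgm2), against 7.02% of all promoters. The first base of each match, counted back from the start site, lay between 24 and 245 bases upstream. A match describes letters and is not evidence of binding.

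**Figure D1:**
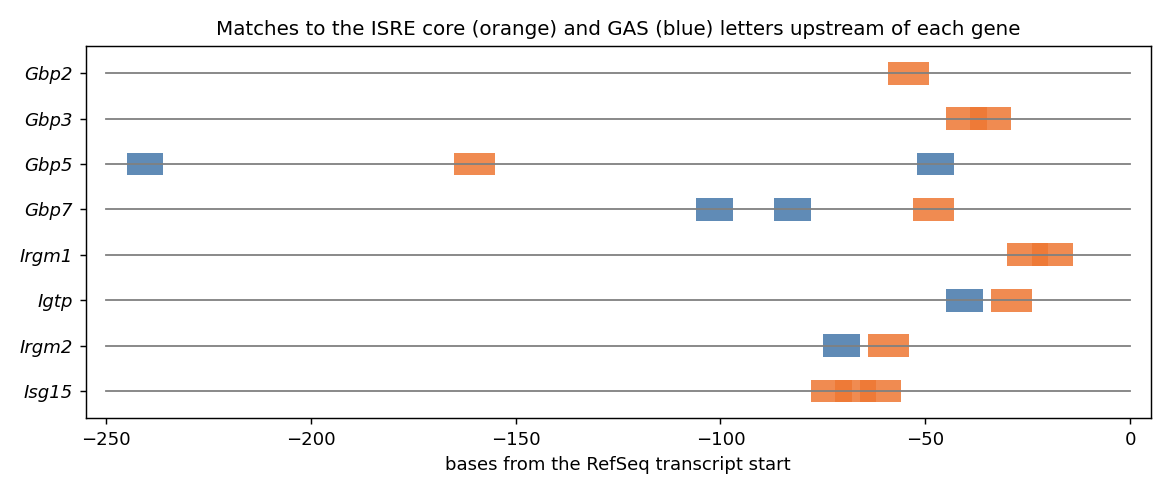
Positions of ISRE core (orange) and GAS (blue) letter matches on a horizontal axis of bases from the RefSeq transcript start, for 7 GTPase genes and Isg15. All 8 genes have an ISRE core match, and Gbp5, Gbp7, Igtp and Irgm2 also have a GAS match.

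Summed over each whole joint, Gbp7, a guanylate-binding protein linked to host defence and oxidant handling, rose in the sick mice. Its CPM, scaled by the trimmed mean of M-values (TMM), was 39.4, 38.5, 37.2 and 39.8 in the 4 healthy mice. It was 94.1, 76.6, 90.4, 76.4 and 75.9 in the 5 sick mice. The healthy values, which rest on 69, 30, 38 and 41 counts, lay within 3 CPM of each other. At such counts the counting error alone is wider than this, so the closeness does not measure how alike the healthy mice were. Every sick value was far above the healthy values. The log2 fold change was 1.09 ± 0.15 (SE), with an adjusted p of 0.00189 in edgeR's quasi-likelihood test over 10323 genes. Gbp7 was the 1 GTPase gene called of the 6 that passed the low-count filter, where 0.639% of all tested genes were called higher and 0.3% lower. In sums over a whole joint, a change in the number of cells of a type and a change in RNA per cell cannot be told apart.

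Igtp, a regulator of vacuole recognition, also separated the groups without passing the threshold. Its scaled CPM was 9.14, 20.5, 14.7 and 11.7 in healthy mice and 22.6, 24.2, 39.1, 30.5 and 25.9 in sick mice. The lowest sick mouse lay just above the highest healthy mouse, healthy mouse 2. The log2 fold change was 1.07 ± 0.27 (SE), and the adjusted p was 0.0861 in edgeR.

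Irgm1, the regulator whose loss is known to expose mice to mycobacteria and to derange their blood-forming cells, had the largest log2 fold change of the 6. Its scaled CPM was 1.71, 2.56, 11.7 and 4.86 in healthy mice and 15.2, 12.4, 19.6, 17.9 and 12.6 in sick mice. The groups were separated narrowly, since healthy mouse 3 lay close to the lowest sick mouse. The log2 fold change was 1.62 ± 0.42 (SE), and the adjusted p was 0.0971 in edgeR. Irgm1 gave 22 counts over the healthy mice and 235 over the sick mice. Leaving out 1 mouse at a time gave log2 fold changes of 1.20 to 2.41 and edgeR adjusted p of 0.0179 to 0.233. The values 2.41 and 0.0179 were those without healthy mouse 3. Every sick mouse lay above every healthy mouse for 2.85% of all tested genes, and for Gbp7, Igtp and Irgm1 among the 6.

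The 3 other tested genes overlapped between groups. Gbp3, whose product is known from host defence at bacterial vacuoles, had scaled CPM of 13.1, 10.3, 15.6 and 8.74 in healthy mice and 13.5, 19.8, 19.0, 28.0 and 21.6 in sick mice, with an adjusted p of 0.234 in edgeR. Only sick mouse 1 fell inside the healthy range of Gbp3. Gbp2, which recruits partners to bacteria, ranged from 1.28 to 6.86 CPM in healthy and from 4.03 to 8.10 in sick mice, and its adjusted p was 0.541. Irgm2, the partner regulator beside Igtp, ranged from 14.1 to 27.4 CPM in healthy and from 11.5 to 31.7 in sick mice, and its adjusted p was 0.747. The 2 lowest values of Irgm2 in the study were in sick mice 1 and 3. Exons of Igtp and Irgm2 overlap on the same strand in GENCODE, and in each gene none of the 50-base windows of the transcript ends was shared with another gene.

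Gbp4, Gbp5 and Iigp1 were too scarce for the test. Gbp4 gave 10 counts in all healthy and 49 in all sick mice, Gbp5 gave 5 and 52, and Iigp1 gave 10 and 70. Gbp5, which promotes inflammasome assembly, ranged from 0 to 2.91 CPM in healthy and from 2.02 to 4.21 in sick mice. Iigp1, the effector that loads onto vacuoles, ranged from 1.28 to 2.91 in healthy and from 0.675 to 7.48 in sick mice, and its lowest value was in sick mouse 1. Gbp4 ranged from 1.71 to 2.91 in healthy and from 2.02 to 4.64 in sick mice. All 3 overlapped between groups, and 22.9% of the end windows of Gbp4 also occur in related genes such as Gbp8 and Gbp9.

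**Figure D2:**
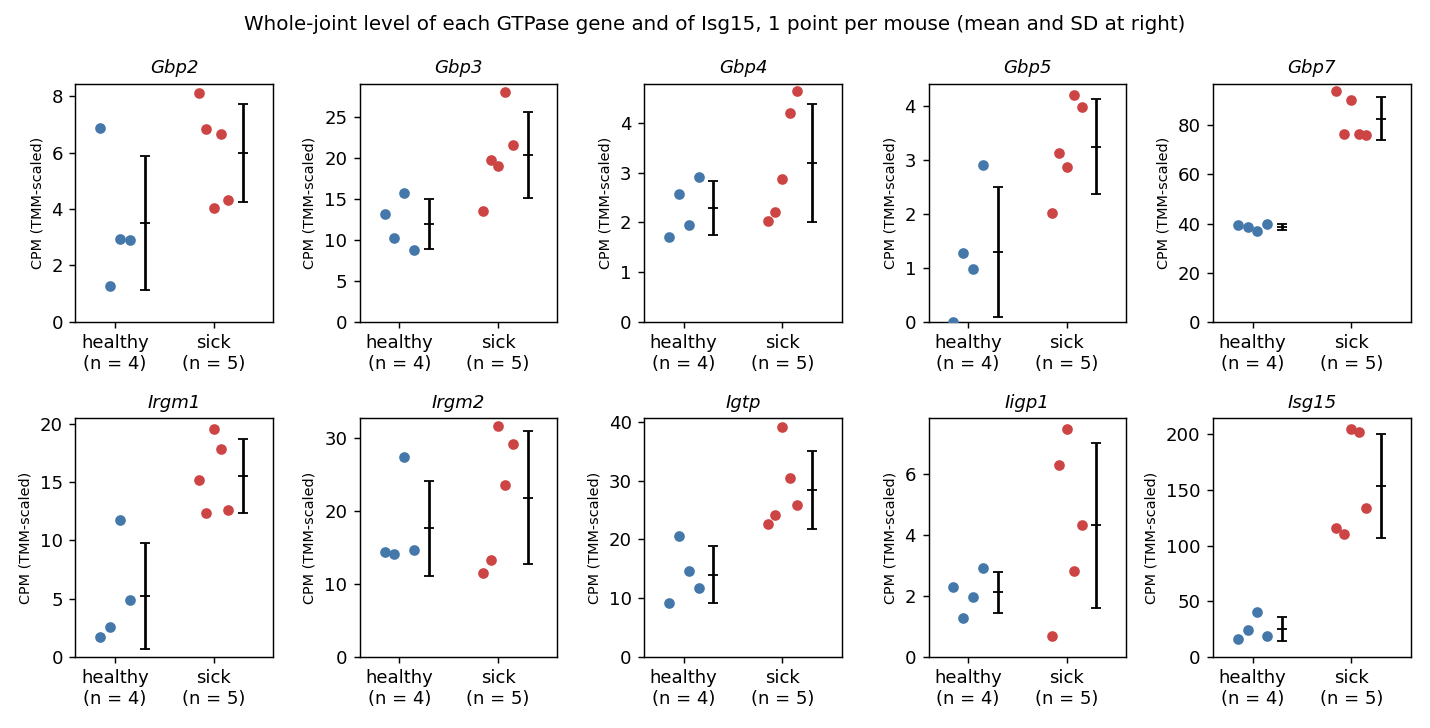
TMM-scaled CPM (vertical axes, linear from 0) of the 9 GTPase genes and Isg15 in 4 healthy (blue) and 5 sick (red) mice, 1 point per mouse, with mean and SD. Gbp7 lies between 37.2 and 39.8 in healthy and between 75.9 and 94.1 in sick mice, and Gbp7, Igtp, Irgm1 and Isg15 do not overlap between groups.

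The median log2 fold change of the 6 tested genes was 0.91, and that of all 10323 tested genes was -0.017. All 6 were positive, and 4 had an unadjusted p under 0.05 in edgeR. The share of all tested genes that were positive or had such a p was not computed. This holds for the later counts at an unadjusted p as well, so these counts are description only. With DESeq2, 3 were called: Gbp7, Igtp (adjusted p = 0.0213) and Irgm1 (adjusted p = 0.0152), where DESeq2 called 1.77% of all genes with an adjusted p higher. The same 3 were called with no low-count filter, among 9 tested, where 0.864% of all genes were called higher. They were also called with library totals in place of TMM, a scaling that moves the median of all genes to 0.29 and calls 1.05% of genes higher. In either direction 0.94% of all genes were called by edgeR. Against healthy mouse 1 alone, which does not share the high haemoglobin of the other healthy mice, the log2 fold change of Gbp7 was 1.08.

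Beside them Isg15 changed more. Its scaled CPM was 15.4, 24.4, 40.1 and 18.5 in healthy mice and 115, 110, 205, 202 and 134 in sick mice. The log2 fold change was 2.67 ± 0.29 (SE), with an adjusted p of 0.000136 in edgeR. Counts of the 9 GTPase genes together were 2.85 to 5.74 times those of Isg15 in healthy mice and 0.960 to 1.497 times in sick mice. The mean ratio to Isg15 was lower in the sick mice for all 9, as for 99.7% of all tested genes. For 7 of the 9 the ratio to Isg15 was lower in every sick mouse than in every healthy mouse, and so it was for 94.2% of all tested genes, so this is not particular to the GTPase genes.

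The remaining GTPase family genes, 14 of which were in the counts, were all below the low-count filter. Tgtp2, an effector of the immunity-related family, ranged from 0 to 1.96 CPM in healthy and from 4.80 to 8.76 in sick mice, and all of its end windows occur in its near-identical copy Tgtp1. Gbp2b (Gbp1) ranged from 2.56 to 3.91 in healthy and from 4.60 to 7.76 in sick mice. Gbp9 gave 12 counts in healthy and 98 in sick mice, and its groups overlapped. Gbp6 had no count in any healthy mouse and 32 in the sick mice. Set against 3 counts over the healthy group, that is a ratio per total count of 3.73. The ratio leaves out the counting error of the sick counts and the spread among mice, so it is not a lower bound. Of the end windows of Gbp6, 88.0% occur in Gbp10, Gbp9 or a neighbouring gene. Gm12250 had 2 healthy and 41 sick counts, a ratio per total count of 7.18 (95% counting interval 1.86 to 61.3). With no filter Tgtp2 was called by edgeR, with an adjusted p of 0.0316, and the 13 others were not.

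The interferon gamma receptor chain genes Ifngr1 and Ifngr2 had log2 fold changes of -0.21 and 0.57, with adjusted p of 0.633 and 0.258 in edgeR. Ifng, the ligand gene, gave 1 healthy and 11 sick counts, a ratio of 3.85 with a 95% counting interval of 0.560 to 166. Irf1, a factor known to relay the gamma signal to Gbp genes, had a log2 fold change of 0.13.

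Among other genes known to answer interferon gamma, 1 of 13 tested rose, none fell, 12 were positive, and the median log2 fold change was 0.36. The one called was B2m, the light chain of class I molecules, which went from 460 ± 29.1 CPM (SD, n = 4) to 772 ± 171 (SD, n = 5), with a log2 fold change of 0.75 and an adjusted p of 0.0490 in edgeR. That call was lost without healthy mouse 2, 3 or 4 and without sick mouse 3, 5 or 6, with adjusted p between 0.0992 and 0.161. The immunoproteasome genes Psmb8, Psmb9 and Psmb10 had log2 fold changes of 0.74, 0.73 and 0.59, with adjusted p of 0.0600, 0.0747 and 0.220. Cxcl9, a chemokine gene used as a marker of interferon gamma, gave 2 healthy and 19 sick counts, a ratio of 3.33 with a 95% counting interval of 0.802 to 29.5. The class II genes H2-Aa, H2-Ab1 and H2-Eb1 had log2 fold changes of -0.0079, 0.33 and 0.15, and Cd74, their chaperone, 0.12. In the neutrophil class 3 of 11 tested genes of this list rose (B2m, Psmb8 and Psmb9, with log2 fold changes of 0.73, 0.81 and 0.86 and edgeR adjusted p from 0.0316 to 0.0425), where 0.868% of all tested genes rose. The median of the list there was 0.29, and in the erythroid class 0 of 6 were called by edgeR, with 2 at an unadjusted p under 0.05.

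In the list of Isg15 and other genes known to answer type I interferon, 19 of 25 tested rose, none fell, and the median log2 fold change was 2.62. This list was assembled with results of these samples known, so its count is not independent evidence of its direction. Rtp4, a chaperone gene known as an interferon response gene, had a log2 fold change of 4.64, Ifi27l2a 3.17, Xaf1 2.88 and Irf7, the factor that amplifies type I interferon, 3.00. Among the interferon ligands and receptors, 0 of 5 tested were called by edgeR or DESeq2, with 2 at an unadjusted p under 0.05. All 5 were receptor chain genes, and no ligand gene was tested. Ifng was too scarce, Ifnb1 gave 1 healthy and 2 sick counts, and the listed alpha and lambda ligand genes were not among the genes counted. Ifnar1, a type I receptor chain, had a log2 fold change of 0.15, and Il10rb 0.86 with an adjusted p of 0.127. Among partners of the GTPases in vacuole targeting and the inflammasome, 0 of 20 tested were called by either tool, with 4 at an unadjusted p under 0.05. Those 4 were Atg3, Gabarap, Il1b and Gsdmd, with log2 fold changes of 0.48, 0.36, 0.65 and 0.66.

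**Figure D3:**
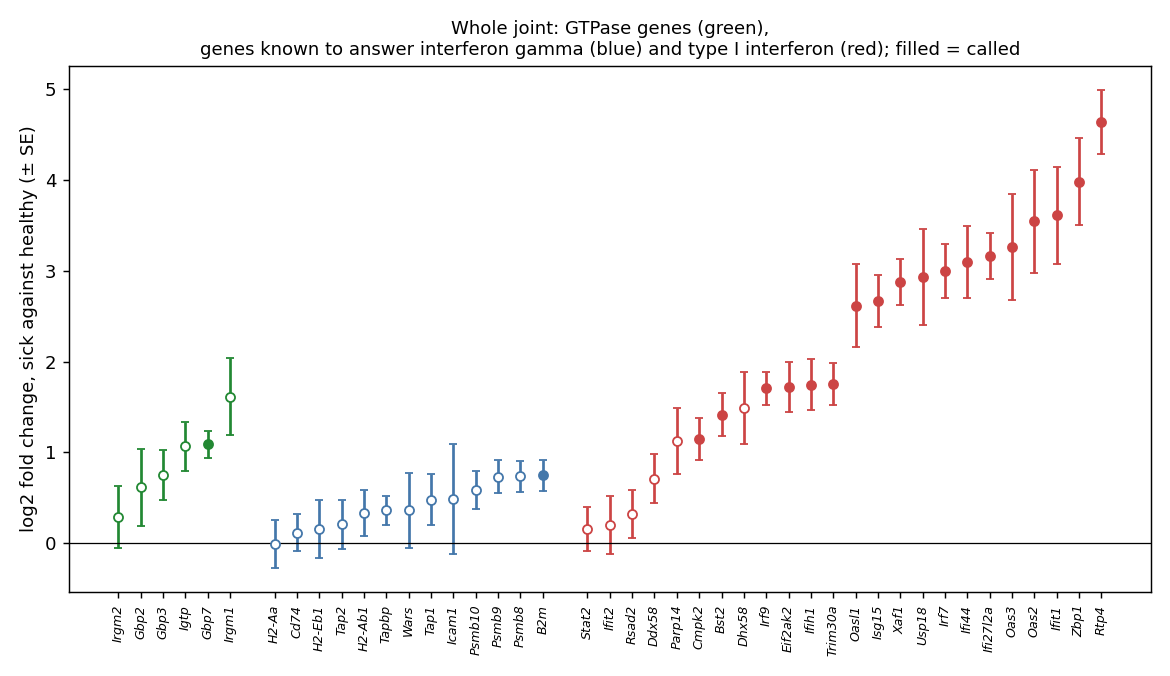
Log2 fold change of sick against healthy mice (vertical axis, points ± SE) for tested genes of 3 lists, filled where the edgeR adjusted p is under 0.05 (Ifit3, with no healthy count, is left out). The GTPase genes run from 0.29 to 1.62, with Gbp7 filled, and the type I interferon list reaches 4.64 (Rtp4).

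The share of cells with a count gives the same genes per cell. To even out depth, each share is the one expected when every cell is thinned to 500 counts, and shallower cells are left out. Thinning does not even out composition, and the shares are without TMM. The high haemoglobin of healthy mice 2, 3 and 4 leaves fewer of the 500 counts for other genes. The part of this in the shares was not tested. For Gbp7 the thinned share was 2.12%, 0.855%, 1.21% and 1.20% of cells in healthy mice and 4.99%, 3.58%, 4.05%, 3.64% and 3.20% in sick mice. The groups did not overlap, and sick mouse 1 was highest. Without thinning the Gbp7 share lay between 2.28% and 5.42% of healthy cells and between 7.29% and 9.69% of sick cells. For Igtp the thinned share was 0.554% ± 0.214 (SD, n = 4) and 1.46% ± 0.363 (SD, n = 5), and for Irgm1 0.177% ± 0.127 and 0.805% ± 0.259. For Isg15 it was 0.985% ± 0.348 in healthy and 7.24% ± 1.90 in sick mice. For any of the 9 genes the unthinned share was 5.48% to 11.1% of healthy cells and 15.6% to 18.2% of sick cells.

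Each share was tested by a two-sided exact permutation test over mice, in which 126 splits of 4 against 5 mice allow no p under 0.0159. For progenitors, with 3 healthy mice, the limit was 0.0357. Of 36 such tests (9 genes in all cells and in 3 cell classes), 0 passed after Benjamini-Hochberg adjustment and 15 had an unadjusted exact p under 0.05. With these limits no test could pass the adjustment unless many reached the limit together, so the 0 does not show equal shares. The lowest adjusted p was 0.0635, reached in 9 tests with every sick mouse above every healthy mouse. These were Gbp7, Gbp3, Igtp and Irgm1 in all cells, where 7.32% of the 10323 genes past the whole-joint filter separated the groups this way. They were Gbp7, Gbp3 and Igtp in the neutrophil class, against 6.81% of those genes, and Gbp7 and Irgm1 in the erythroid class, against 3.19%. In progenitors Gbp3, of the 6 GTPase genes past that filter, did so (adjusted p = 0.0918 in the exact test), against 3.59%. With the excess gate, a class rule given with the cell classes, the direction of that Gbp3 difference turned, to 1.99% in healthy and 1.12% in sick mice.

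**Figure D4:**
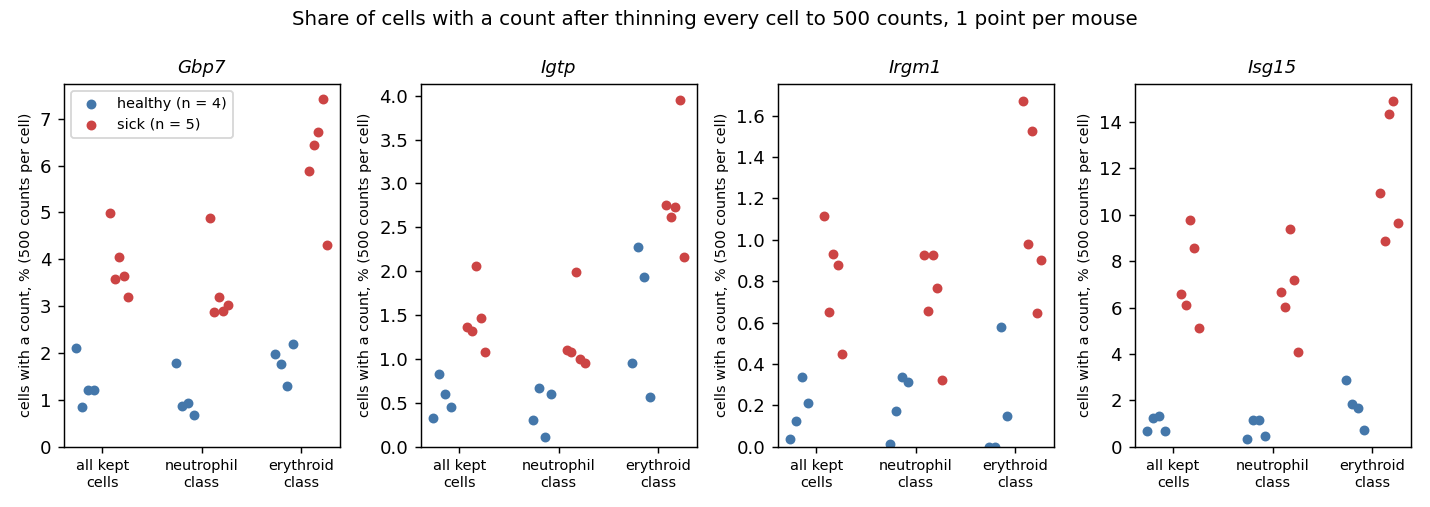
Percent of cells with a count after thinning to 500 counts (vertical axes), 1 point per mouse, for Gbp7, Igtp, Irgm1 and Isg15 in all kept cells, the neutrophil class and the erythroid class. Gbp7 runs from 0.855% to 2.12% in healthy and from 3.20% to 4.99% in sick mice over all cells, and from 4.30% to 7.41% in the erythroid class of sick mice.

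Cell classes were gated by marker counts: a cell joined a class when it held at least 2 different markers of it and more than of any other class. This put 11443 of the 16749 kept cells in the neutrophil class, 2114 in the erythroid and 462 in the granulocyte progenitor class, and too few in the others for a test. Neutrophil markers made up 7225 CPM of the erythroid class itself and 43531 CPM of the neutrophil class, a share of neutrophil RNA whose part in the class values was not tested. No class gated here is known to lack the GTPase genes. Another gate, called the excess gate here, was added after the data were seen. It asks for more marker counts than the mean share over mice gives, with a Poisson tail under 0.0001, and it keeps 7668 cells. It admits fewer neutrophils and erythroid cells but more of other classes, such as 639 against 462 granulocyte progenitors and 315 against 173 monocytes or macrophages. Neutrophil markers took more of its other classes, with 8757 CPM in the erythroid class, 7757 against 4732 in monocytes or macrophages, 7373 against 3319 in early B cells and 26351 against 4228 in eosinophils. Their part in the class levels was not tested. In all 5 gates were tried, and this tail was settled with counts of the GTPase genes by class already in view.

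In the neutrophil class Gbp7 rose. Its CPM was 37.0, 28.4, 20.5 and 14.4 in healthy mice and 112, 70.0, 83.8, 61.0 and 61.1 in sick mice. The groups did not overlap, and sick mouse 1 was highest. The share of all genes that separate this way in class CPM, which are without TMM, was not computed. The log2 fold change was 1.27 ± 0.22 (SE), with an adjusted p of 0.00646 in edgeR. It was the 1 gene called of 5 GTPase genes tested in that class, where 0.868% of genes were called higher. Igtp had a log2 fold change of 1.18 (adjusted p = 0.141), Irgm1 1.30 (0.221), Gbp3 0.71 (0.362) and Irgm2 0.13 (0.916). Under the excess gate, with 540 healthy and 3740 sick neutrophils, where 0.376% of genes were called higher, Gbp7 was no longer called: its log2 fold change was 1.88 and its adjusted p 0.110. Of those 540 cells, 328 were from healthy mouse 1 and 82, 67 and 63 from the others.

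In the erythroid class Gbp7 rose as well. Its CPM was 50.4, 86.5, 36.3 and 54.0 in healthy mice and 147, 172, 159, 148 and 117 in sick mice. Every sick mouse was above every healthy mouse, of which mouse 2 was highest. For class CPM the share of all genes that do so was not computed here either. The log2 fold change was 1.23 ± 0.25 (SE), with an adjusted p of 0.00751 in edgeR, for 1 of 3 GTPase genes tested, where 0.509% of genes were called higher. Irgm2 and Igtp had log2 fold changes of 0.88 and 0.75, with adjusted p of 0.488 and 0.501. Without healthy mouse 1 the adjusted p of Gbp7 was 0.0518, and under the excess gate, with 252 healthy and 1099 sick cells and 0.792% of genes called higher, it was 0.0410. The call under the excess gate was lost without any 1 mouse other than sick mouse 1 or 6, with adjusted p from 0.0585 to 0.294. In granulocyte progenitors no GTPase gene passed the low-count filter, and 0% of 1178 genes were called higher. Gbp7 there was 99.5, 44.2 and 59.9 CPM in the 3 healthy mice with enough cells and 19.1 to 100 in the sick mice. Under the excess gate its adjusted p was 0.592, where 0.0331% of genes were called higher.

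Whether the change differed between classes was tested as an interaction. In edgeR 0 of 7083 genes were called, which is 0% of them. The difference of the Gbp7 log2 fold change between erythroid and neutrophil classes was -0.032 ± 0.32 (SE). Over all 3 classes the interaction of Gbp7 had an unadjusted p of 0.0428 and an adjusted p of 0.589. Under the excess gate 0.0796% of 5023 genes were called, none of them a GTPase gene.

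The order of levels over classes was read from counts pooled over sick mice under the excess gate, with 95% Poisson intervals that cover counting error only. Class names here stand for marker gates, not for types annotated by the authors. The 9 genes together were at 415 CPM (286 to 583) in osteoblasts, 331 (306 to 359) in the erythroid class, 268 (207 to 341) in early B cells and 257 (163 to 386) in mast cells or basophils. They were at 243 (157 to 358) in skeletal muscle cells, 242 (195 to 296) in monocytes or macrophages, 239 (142 to 378) in plasmacytoid dendritic cells and 200 (133 to 289) in fibroblasts. Granulocyte progenitors followed with 175 (153 to 199), eosinophils with 164 (107 to 241) and neutrophils with 108 (98.6 to 118). Neighbours from osteoblasts to fibroblasts had overlapping intervals, and the intervals of neutrophils and granulocyte progenitors did not overlap. In healthy mice the same sum was 139 (106 to 178) in the erythroid class, 101 (67.2 to 146) in granulocyte progenitors and 49.9 (33.9 to 70.8) in neutrophils, the last mostly from healthy mouse 1. Taken per mouse, the sum was higher in the erythroid class than in granulocyte progenitors, and higher there than in neutrophils, in 5 of 5 sick mice, though by 90.4 against 89.2 CPM for the latter pair in sick mouse 5. The other classes held too few cells for values per mouse. A single sick mouse gave 69 of the 94 fibroblasts, and 49 of the 109 skeletal muscle cells came from 1 sick mouse. The 50 osteoblasts of sick mice came 2 to 19 per mouse. The pooled levels of these classes thus weight the mice unequally.

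Monocytes or macrophages gave 185 CPM (109 to 292) in healthy mice, an interval that overlapped that of the sick mice. For Isg15 the pooled levels were as follows: in sick mice it was at 260 CPM (238 to 285) in the erythroid class, 103 (93.3 to 113) in neutrophils, 48.6 (37.3 to 62.4) in granulocyte progenitors and 44.6 (26.0 to 71.5) in monocytes or macrophages. In sick mice 1, 3, 4, 5 and 6 Isg15 was at 213, 189, 322, 409 and 216 CPM in the erythroid class and at 130, 106, 152, 107 and 48.2 in neutrophils, so the erythroid value was the higher in each. Neutrophils were above granulocyte progenitors in 4 of 5 sick mice. Sick mouse 3, the lowest in whole-joint Isg15, gave 139 of the 265 monocytes or macrophages but 288 of the 1099 erythroid cells, so the pooled levels of these classes weight the mice differently. Within neutrophils of sick mice Gbp7 gave 254 of the 467 counts of the 9 genes, and Gbp3 gave 28. Gbp3 was at 44.6 CPM (26.0 to 71.5) in monocytes or macrophages and at 6.49 (4.31 to 9.38) in neutrophils of sick mice.

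**Figure D5:**
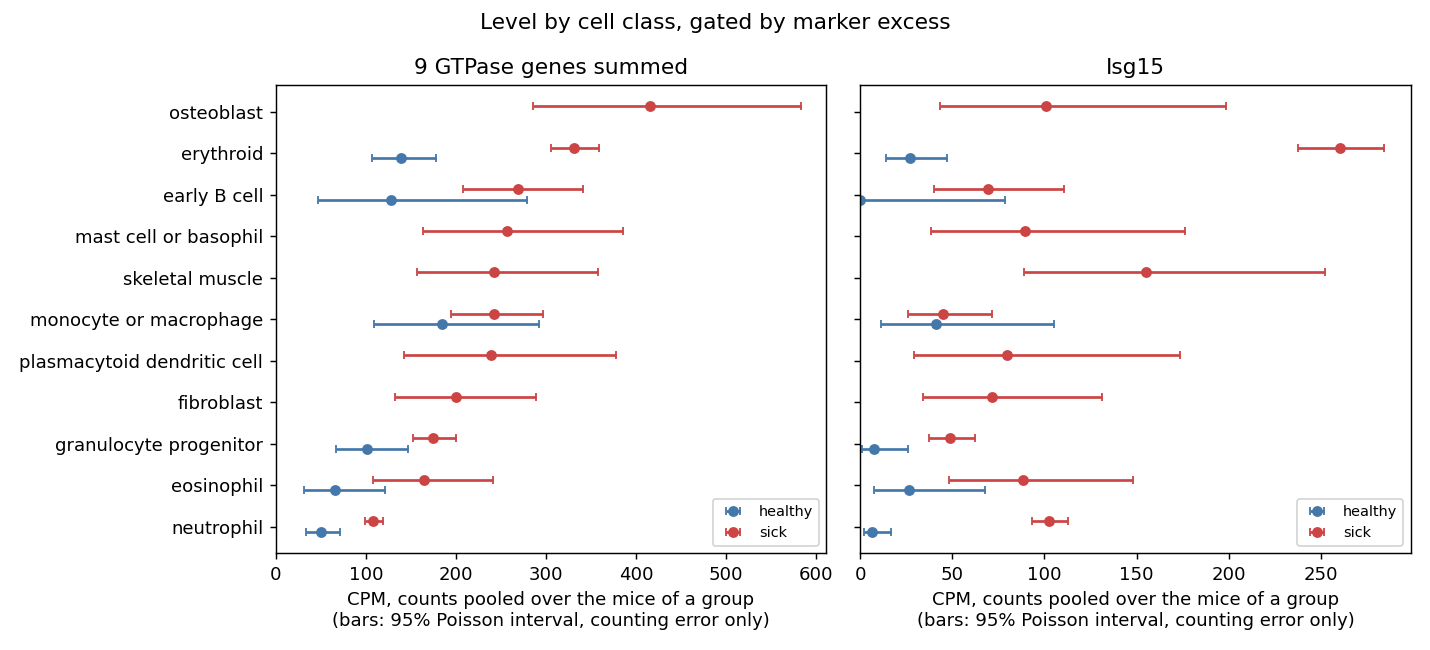
CPM (horizontal axes, from 0) of the 9 GTPase genes summed (left) and of Isg15 (right) by cell class under the excess gate, counts pooled over the healthy (blue) or sick (red) mice, with 95% Poisson intervals. Classes have at least 50 sick cells, and healthy points are drawn where a class was large enough. The erythroid class of sick mice is at 331 for the GTPase genes and 260 for Isg15, and neutrophils are at 108 and 103.

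Cells with a GTPase count were compared with other cells of the same mouse for Isg15. In the sick mice Isg15 was counted in 18.3%, 19.5%, 28.0%, 28.1% and 15.3% of cells with a GTPase count. In cells without one, matched on bins of depth within the mouse, it was counted in 11.7%, 12.3%, 19.3%, 16.9% and 14.1%. The first share was higher in each of the 5 sick mice, by little in sick mouse 6. Cells were not matched on class, and the levels of the GTPase genes and of Isg15 both differed between classes. Depth inside a bin was not matched either. Before matching, the median depth in sick mice was 1135.5 to 1488 counts with a GTPase count and 773 to 888 without. The parts of class and of remaining depth in this difference were not tested. In healthy mice 0 to 8 cells per mouse held both, too few to compare.

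Over the 9 mice the genes with the most similar pattern to the mean log2 CPM of the 6 tested GTPase genes were Isg15 (r = 0.98), Bbip1 (0.97), Gm4759 (0.96), Tmem234 (0.95) and Ubl4a (0.94), of 5473 genes compared. These values share the split into healthy and sick mice. Over 11 classes of sick cells the nearest of 6559 genes were Pcmtd2 (r = 0.87), Smim8 (0.80), Svbp (0.80), Fam63b (0.79) and 0610007P14Rik (0.79), and these points differ in depth and number of cells.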

How the data were processed

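Per the labels, whole joints were profiled by Seq-Well, repeated sequencing rounds of a sample were merged, and reads went through bcl2fastq, Picard, the Drop-seq protocol and STAR. The labels' protocol names a human build (GRCh38) and the submitters' processing notes name mouse builds (GRCm38, mm9), so the build behind the counts is unclear; symbols are mouse ones, and 94.2% match GENCODE M21. The deposited table holds raw counts per gene and cell, whole numbers throughout, from the authors. Of 16751 cells, 16749 passed the limits used here (no fewer than 200 genes, mitochondrial share up to 20%), and 8 barcodes occurred in more than 1 mouse. No doublet caller was run.

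Counts were summed per mouse, for the joint and for classes with at least 20 cells in 3 or more mice a group. Sums were tested with edgeR 4.0.16 (filterByExpr, TMM, quasi-likelihood, Benjamini-Hochberg threshold 0.05); DESeq2 1.42.0 was the alternative tool. On simulated joints of 10139 genes the test called 58.9% of genes changed 2-fold and 98.9% changed 4-fold. The changed genes were drawn at random from tested genes of all levels, so these rates are averages over them. Of the genes called, 6.37% had not been changed. Rates at the levels of the GTPase genes were not computed. Separate mice are the replicates. Level intervals are exact Poisson and cover counting error only. Class CPM are per total class count, without TMM.

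The genes and lists were chosen with earlier results of these data known. Genes named in the text are all 9 GTPase genes, Isg15, other GTPase family genes, up to 4 genes of lowest p per list and the 5 most similar genes per pattern; those named otherwise were chosen after their values were seen. End windows are 50-base windows of the last 400 bases of GENCODE transcripts. Alternatives covered tool, scaling, filters, gates and leaving out mice. The counts of 1 gene list are not reported here.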

Additional observations from a re-analysis of the deposited data

Results flagged for a closer look

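Outliers were looked for in 33 sets of 4 or 5 mice, by the gap of the extreme mouse to its nearest neighbour as a share of the range, a test that flags about 1 in 20 such sets by chance. Irgm2 stood out in healthy mouse 3, at 27.4 CPM, while the 3 other healthy mice lay between 14.1 and 14.6.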

How the results depend on the processing

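The number of GTPase genes called higher in the whole joint was 1, and 3 with DESeq2, 3 with no filter and 3 with library totals, and 1 to 2 when leaving out a mouse (2 without healthy mouse 3). The number of all genes called was 97, and 254 with DESeq2, 282 with no filter, 51 in cells of at least 400 genes, 53 in cells of the excess gate and 53 to 255 when leaving out a mouse. Library totals raised the higher share of calls from 68.0% to 85.7%. In neutrophils 1 GTPase gene was called, 2 with no filter, 0 under the excess gate at 0.0001 and 1 at 0.001. In the erythroid class 1 was called, with 0 to 1 when leaving out a mouse. Under the excess gate 1 was called there, with 0 to 1 when leaving out a mouse and 0 at 1e-06. The type I list gave 17 to 19 calls when leaving out a mouse. The interferon gamma answering list gave 1 call, 3 with DESeq2, 3 with no filter, 2 in gated cells, 0 with DESeq2 size factors, 0 with the replicate block and 0 to 3 when leaving out a mouse. Irgm2 turned to -0.13 with the replicate block in the joint and to -0.038 with it in neutrophils, where leaving out a mouse gave -0.26 to 0.57, below 0 without healthy mouse 1 and without 4 or 6 of the sick mice. Gbp2 turned to -0.15 against healthy mouse 1. Same-numbered mice correlated at 0.17, -0.048 and 0.070 in their deviations from the group means. No label says that the numbers pair mice. These values cannot decide it, since no spread for unpaired mice was set beside them. With the replicate block 1 GTPase gene and 70 genes were called. With healthy mouse 1 as the only healthy mouse, assumed to vary like the sick mice, that design of 1 against 5 called 0 GTPase genes, 12 genes in all, 4 of the type I list and 0 of the interferon gamma answering list, which says nothing about stability. The causes were not tested. Gbp4, Gbp5 and Iigp1 are limited by depth, with at most 10 counts over the healthy mice.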
